A study of Mus musculus with 4 samples.

Results

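Angiopoietins, angiopoietin-like proteins and endocan are secreted factors that act on blood vessels, on the extracellular matrix or on lipid supply, and 8 of their genes were followed here in 2 kinds of fibro-adipogenic progenitors (FAPs, stromal cells of skeletal muscle). The genes were Angpt1, Angpt2, Angpt4, Angptl1, Angptl2, Angptl4, Angptl7 and Esm1, which are 8 of the 24421 gene symbols in the count table. They were chosen as secreted vessel-acting factors with their levels in DPPIV+ and DPPIV- FAPs already known, Esm1 being nearly absent from the DPPIV+ cells. All values of the contrast between those cells are therefore a description of these genes and carry no test.

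Bulk RNA was sequenced from DPPIV- FAPs and DPPIV+ FAPs of the same 2 wild-type mice, so that 4 libraries were compared (n = 2 mice in each group). Both groups were sorted as PI- CD31- CD45- Sca1+ cells and split by DPPIV, a surface peptidase encoded by Dpp4. Both mice had received a CSF1R inhibitor, which depletes macrophages, for 3 weeks and a regular diet for the following 3 days, and no untreated library was analysed here. The labels give the Tibialis Anterior as source, whereas their extraction protocol and the study's methods give the muscle of both hindlimbs. The libraries held 18240110 to 20879405 reads counted on genes, and a count of 3 reads corresponded to between 0.143 and 0.167 CPM, the read count scaled to a common library size. Dpp4 averaged 64.7 ± 35.4 CPM (SD) in DPPIV- and 651 ± 108 CPM in DPPIV+ FAPs. In DPPIV- FAPs it had 89.8 CPM in mouse 1 and 39.7 CPM in mouse 2. The ratio of DPPIV+ to DPPIV- was thus 8.11 in mouse 1 and 14.5 in mouse 2. What this means for the differences between the mice given below was not tested. In bulk RNA, fewer cells that express a gene and less of its RNA per cell cannot be told apart.

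Angiopoietin 1 activates the receptor Tie2, encoded by Tek, and stabilizes vessels, while angiopoietin 2 is a context-dependent antagonist of the same receptor and angiopoietin 4 is a further Tie2 ligand. Angiopoietin-like proteins share the domain structure of angiopoietins but do not bind Tie2. Angptl4 inhibits lipoprotein lipase, Angptl2 and Angptl7 are matrix-associated or inflammatory factors, and endocan, encoded by Esm1, is a small dermatan sulfate proteoglycan best known from endothelial tip cells.

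The genes lie on 7 chromosomes of the mouse genome (GRCm38, GENCODE M21). Angpt1 spans chr15:42424723-42676977 on the minus strand, Angpt2 chr8:18690263-18741562 on the minus strand and Angpt4 chr2:151911210-151945337 on the plus strand. Angptl1 spans chr1:156838562-156861078 and Angptl2 chr2:33216069-33247717, both on the plus strand. Angptl4 lies at chr17:33773750-33781830 and Angptl7 at chr4:148495183-148500460, both on the minus strand, and Esm1 at chr13:113209659-113218098 on the plus strand. Their structures follow the subfamilies. Each angiopoietin has 9 exons and a coding sequence of 496 to 509 codons, the angiopoietin-like genes have 5 to 7 exons and 337 to 493 codons, and Esm1 has 3 exons and 184 codons.

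Promoter sequence, the 250 bases before the annotated start, was held in the RefSeq table (GRCm38.p6) for 5 of the 8 genes, Angpt4, Angptl1, Angptl2, Angptl7 and Esm1. Shown here are the gene with the largest ratio between the cell types, the gene that was higher in DPPIV+ FAPs and the angiopoietin, read 5′ to 3′ on the gene's own strand, with motif matches in capitals. The Esm1 window is chr13:113209409-113209658 on the plus strand, the Angptl7 window chr4:148500463-148500712 on the minus strand and the Angpt4 window chr2:151910957-151911206 on the plus strand.
Esm1: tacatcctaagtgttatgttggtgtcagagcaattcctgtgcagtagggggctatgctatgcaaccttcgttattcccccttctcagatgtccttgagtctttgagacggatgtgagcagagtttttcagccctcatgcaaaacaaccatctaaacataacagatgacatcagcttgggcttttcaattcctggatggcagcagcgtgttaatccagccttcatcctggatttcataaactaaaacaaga
Angptl7: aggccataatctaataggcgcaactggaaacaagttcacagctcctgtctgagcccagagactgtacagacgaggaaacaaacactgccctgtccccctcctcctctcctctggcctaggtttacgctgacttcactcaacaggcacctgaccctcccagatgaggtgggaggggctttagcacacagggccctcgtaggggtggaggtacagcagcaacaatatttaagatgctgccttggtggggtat
Angpt4: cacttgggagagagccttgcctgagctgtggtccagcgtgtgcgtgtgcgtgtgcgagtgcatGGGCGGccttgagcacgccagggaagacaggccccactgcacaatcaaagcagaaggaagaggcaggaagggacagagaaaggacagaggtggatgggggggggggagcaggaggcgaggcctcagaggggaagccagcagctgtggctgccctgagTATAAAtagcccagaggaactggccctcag
Both strands were searched for 5 motifs. They were the TATA box, spelled TATAAA, and the CCAAT box, spelled by its name. The GC box was spelled GGGCGG and the hypoxia response core ACGTG. The AP-1 site, to which Fos and Jun bind, was spelled TGANTCA with N for any base. No match found in these windows overlapped that of another motif. The Angpt4 window held a GC box from base -187 to -182 and a TATA box from -30 to -25 before the start. Of all 32851 windows of the same length, 32.7% held the GC box and 12.4% the TATA box. Neither the Esm1 nor the Angptl7 window held any of the 5 motifs, of which CCAAT stood in 33.8%, the AP-1 site in 6.7% and the hypoxia core in 16.6% of all windows. The Angptl2 window held 2 GC boxes, and the Angptl1 window no match. All windows precede the RefSeq start, and that of Angptl1, chr1:156838773-156839022, lies inside the GENCODE span of the gene given above. GC content was 44.0% for Esm1, 54.4% for Angptl7, 62.4% for Angpt4 and 66.8% for Angptl2, against a median of 52.4% over all windows. Esm1 thus lay below the lower quartile of 45.2%, and Angpt4 and Angptl2 above the upper quartile of 61.2%.

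In overview, 5 of the 8 genes were lower in DPPIV+ than in DPPIV- FAPs (Angpt1, Angpt2, Angpt4, Angptl1 and Esm1), Angptl7 was higher, and Angptl2 and Angptl4 were near equal. Over the 11588 genes that reached 2 CPM in 2 or more libraries, 17.2% were called lower and 15.9% higher in DPPIV+ FAPs (edgeR's quasi-likelihood test, adjusted p under 0.05). By the same call, 5 of the 8 genes were lower and 1 higher, and because they were chosen on this contrast nothing is read from these counts. Their median log2 difference was -0.91, beside -0.0020 over all genes tested. The CPM ranges of the cell types did not overlap for 6 of the 8 genes, against 56.3% of all genes tested. Angpt2 and Esm1 reached the 2 CPM minimum only through the DPPIV- libraries, so they could enter the test only with a difference of this direction.

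**Figure D1:**
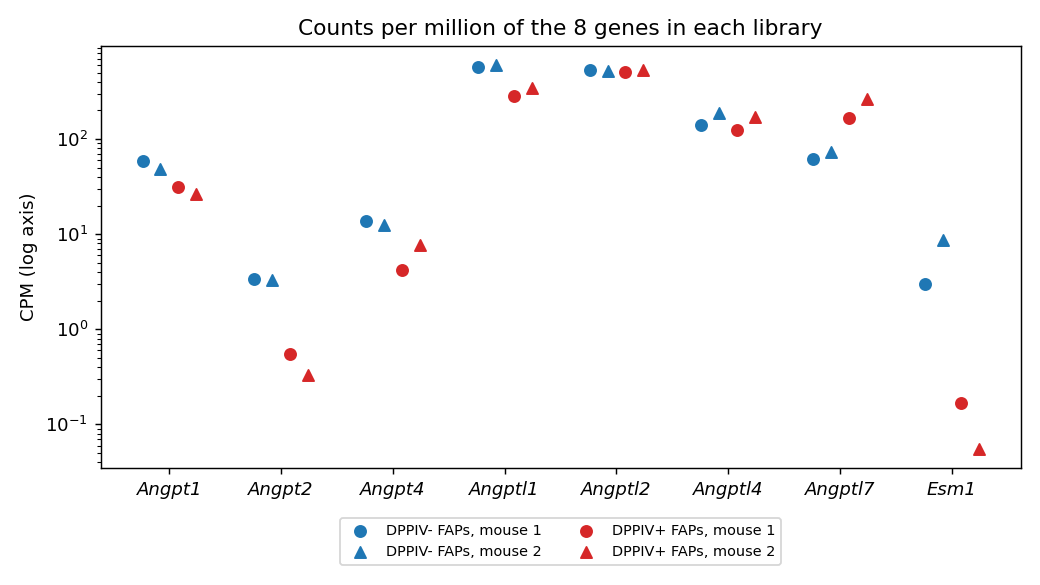
CPM (log axis) of the 8 genes in each of the 4 libraries, with DPPIV- FAPs in blue, DPPIV+ FAPs in red, mouse 1 as circles and mouse 2 as triangles. The red points lie below the blue ones for Angpt1, Angpt2, Angpt4, Angptl1 and Esm1 and above them for Angptl7, and the colours overlap for Angptl2 and Angptl4.

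Among the angiopoietins, Angpt1 was the most abundant. In DPPIV- FAPs it had 59.2 CPM (mouse 1) and 48.4 CPM (mouse 2, an order kept below), against 31.4 and 26.3 CPM in DPPIV+ FAPs. Each DPPIV- library thus exceeded both DPPIV+ libraries. The fitted log2 difference (DPPIV+ minus DPPIV-) was -0.90 with a standard error (SE) of 0.08, and the ratio of DPPIV- to DPPIV+ was 1.89 in mouse 1 and 1.84 in mouse 2, so the mice gave nearly the same value. Here and below, the SE rests on the trend over all genes and does not measure the spread between the mice.

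Angpt2, the Tie2 ligand linked with vessel remodelling, was counted at 71 and 65 reads in DPPIV- and 10 and 6 reads in DPPIV+ FAPs. In CPM these were 3.39 and 3.32 against 0.555 and 0.329. DPPIV- libraries were close to each other and the DPPIV+ libraries were low in both mice. The ratio of DPPIV- to DPPIV+ was 6.11 in mouse 1 (95% counting interval 3.13 to 13.3, exact binomial) and 10.1 in mouse 2 (4.40 to 28.5). Such intervals cover counting error only. On the log2 scale the fitted difference was -2.91 (SE 0.35).

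Angpt4 had 13.9 and 12.4 CPM in DPPIV- and 4.22 and 7.79 CPM in DPPIV+ FAPs. The groups did not overlap, but the size differed between the mice, with a log2 difference of -1.72 in mouse 1 and -0.67 in mouse 2 around a fit of -1.15 (SE 0.16). The counting intervals of the ratio, 2.55 to 4.30 in mouse 1 and 1.29 to 1.98 in mouse 2, did not meet.

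Relative to each other, and per length of exon, Angpt2 shifted against Angpt1, while the share of Angpt1 among the 3 overlapped. Levels per length are given as RPKM, that is CPM per kilobase of merged exons. Summed over the 3 angiopoietins, the level was 18.2 and 15.5 RPKM in DPPIV- and 7.99 and 8.48 RPKM in DPPIV+ FAPs. Angpt2 amounted to 8.09% and 9.68% of the Angpt1 level in DPPIV- FAPs but to 2.50% and 1.76% in DPPIV+ FAPs. The antagonist transcript was thus a minor one in every library and scarcer in DPPIV+ cells, where it rests on 10 and 6 reads. Angpt1 made up 62.3% and 59.9% of the 3 in DPPIV- and 75.5% and 59.6% in DPPIV+ FAPs, ranges that overlap.

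Angptl1, an orphan family member described as anti-angiogenic, was the most abundant of the 8 genes by CPM in DPPIV- FAPs. The DPPIV- libraries had 578 and 599 CPM and the DPPIV+ libraries 281 and 347 CPM. The difference was seen in both mice without overlap, at log2 values of -1.04 in mouse 1 and -0.79 in mouse 2 and a fit of -0.91 (SE 0.07). The fit was close to that of Angpt1. In both DPPIV+ libraries, Angptl2 had the higher CPM.

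Angptl2, which binds the receptor PirB and integrins in inflammation, stood at 535 and 525 CPM in DPPIV- and 510 and 528 CPM in DPPIV+ FAPs. All 4 libraries were within a narrow band and the groups overlapped. The fitted log2 difference was -0.03 (SE 0.07), and its sign differed between the mice, at -0.07 in mouse 1 and 0.01 in mouse 2.

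Angptl4, the fasting- and hypoxia-responsive inhibitor of lipoprotein lipase, had 139 and 188 CPM in DPPIV- and 125 and 172 CPM in DPPIV+ FAPs. Mouse 2 was the higher one in each cell type, and the cell types overlapped. The log2 difference between the cell types was -0.15 in mouse 1 and -0.13 in mouse 2, with a fit of -0.14 (SE 0.07). With upper-quartile in place of TMM scaling the fit was -0.18, and Angptl4 was then also called lower.

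Angptl7, a secreted factor of connective tissue and cornea, went the other way. It had 62.1 and 73.8 CPM in DPPIV- and 168 and 262 CPM in DPPIV+ FAPs. Both DPPIV+ libraries were above both DPPIV- libraries, by 2.70-fold in mouse 1 (95% counting interval 2.53 to 2.89) and 3.55-fold in mouse 2 (3.35 to 3.77). These intervals did not meet. The log2 difference was 1.435 in mouse 1 and 1.827 in mouse 2, with a fit of 1.64 (SE 0.07).

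Esm1 had the largest ratio of the 8 in each mouse, the property it was chosen for. It was counted at 62 and 168 reads in DPPIV- FAPs and at 3 reads and 1 read in DPPIV+ FAPs, or 2.96 and 8.59 CPM against 0.167 and 0.0549 CPM. The DPPIV+ counts were at or under the 3 reads taken as the floor, while the DPPIV- libraries were clearly above it and unequal between the mice. The ratio of DPPIV- to DPPIV+ was 17.8 in mouse 1 (95% counting interval 5.81 to 88.6) and 157 in mouse 2 (27.7 to 6220). A fitted log2 difference at such counts depends on the prior count and is not given.

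**Figure D2:**
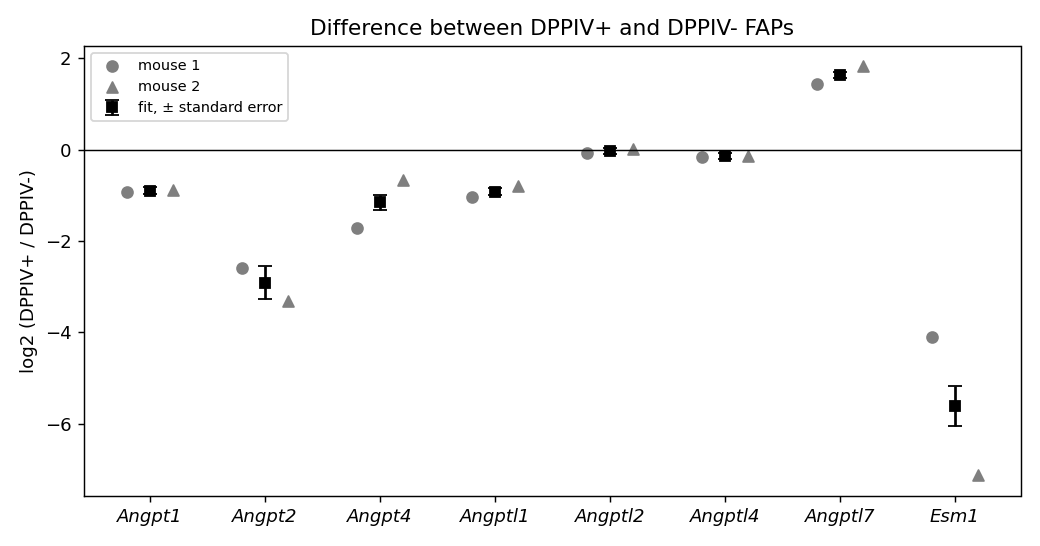
Log2 ratio of DPPIV+ to DPPIV- FAPs for each gene in mouse 1 (circles) and mouse 2 (triangles), with the fitted value and its standard error (black squares). Esm1 lies lowest, with a fitted value that depends on the prior count, Angptl7 is above 0 at 1.64, and Angptl2 and Angptl4 lie near 0.

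Per length, the order in DPPIV- FAPs was Angptl1 (207 ± 5.19 RPKM, SD), Angptl2 (84.3 ± 1.13), Angptl4 (46.1 ± 9.75), Angptl7 (31.5 ± 3.82), Angpt1 (10.3 ± 1.46), Angpt4 (5.64 ± 0.449), Esm1 (2.75 ± 1.90) and Angpt2 (0.910 ± 0.0134). The 2 libraries of each gene there did not overlap those of its neighbours in the order. In DPPIV+ FAPs, Angptl1 (111 ± 16.4 RPKM), Angptl7 (99.6 ± 30.8) and Angptl2 (82.6 ± 1.99) came first, and the range of Angptl7, 77.9 to 121 RPKM, overlapped that of both. Angptl4 (41.9 ± 9.38), Angpt1 (5.54 ± 0.685) and Angpt4 (2.57 ± 1.08) followed without overlap, and Angpt2 (0.120 ± 0.0434) and Esm1 (0.0528 ± 0.0377) were last. The place of Angptl2 depended on the gene length used. By its longest transcript in place of merged exons, its level was 149 RPKM in DPPIV- and 146 RPKM in DPPIV+ FAPs, and it then came before Angptl1 (118 RPKM) in DPPIV+ FAPs.

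The summed level of the 7 family genes was 375 and 397 RPKM in DPPIV- and 301 and 384 RPKM in DPPIV+ FAPs, totals that overlap. Angptl1 held 54.3% and 53.1% of it in DPPIV- FAPs and 32.8% and 31.8% in DPPIV+ FAPs. The shares of Angptl2 (22.7% and 21.02% against 26.9% and 21.8%) and of Angptl4 (10.5% and 13.3% against 11.7% and 12.6%) overlapped. Angptl7 held 7.68% and 8.61% against 25.9% and 31.6%. Angptl6, a circulating metabolic factor, had 23 to 29 reads per library, and Angptl8, a factor of liver and fat, had 0 to 1 read, and neither passed the filter.

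**Figure D3:**
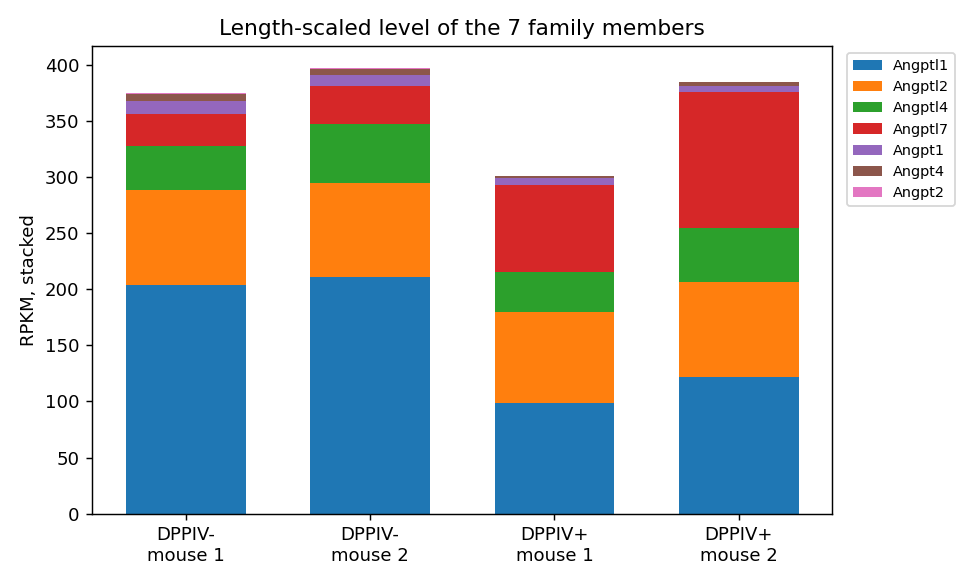
Stacked RPKM of the 7 family genes in each library, with bars starting at 0. The red Angptl7 block is 25.9% and 31.6% of the total in DPPIV+ FAPs against 7.68% and 8.61% in DPPIV- FAPs, and the blue Angptl1 block is smaller in DPPIV+ FAPs.

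The difference between the mice was not used to choose the genes and was also fitted (mouse 2 minus mouse 1, adjusted p from edgeR over all genes). Each side was 1 animal, with its DPPIV- and DPPIV+ cells as the libraries, so the adjusted p does not measure the spread among animals. Of all genes tested, 8.98% were called, and 4 of the 8 genes were among the calls. Angptl4 was higher in mouse 2 by a log2 difference of 0.45 (SE 0.07, adjusted p = 2.12e-09), at 0.43 in DPPIV- and 0.46 in DPPIV+ FAPs. Angptl7 was higher in mouse 2 by 0.46 (SE 0.07, adjusted p = 1.3e-09), unequally at 0.25 in DPPIV- and 0.64 in DPPIV+ FAPs. Angpt1 was lower in mouse 2 by a log2 difference of -0.27 (SE 0.08, adjusted p = 0.0101). DESeq2 also called Angptl4 (adjusted p = 0.00303) and Angptl7 (adjusted p = 0.0265) but not Angpt1 (adjusted p = 0.973). For Esm1 the fit gave 1.41 (SE 0.30, adjusted p = 0.000108), but the direction was set by the DPPIV- libraries at 1.53, while the 3 reads and 1 read of the DPPIV+ libraries gave -1.50, and DESeq2 returned no adjusted p. Angptl1 (adjusted p = 0.0898), Angpt4 (0.441), Angpt2 (0.862) and Angptl2 (0.962) were not called. For Angptl4, the fitted difference between the mice (0.45) stood beside one of -0.14 between the cell types, which were not tested against each other. With 1 residual degree of freedom, the spread of each gene was taken from the trend over all genes, and nothing in the labels says how the mice differed.

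**Figure D4:**
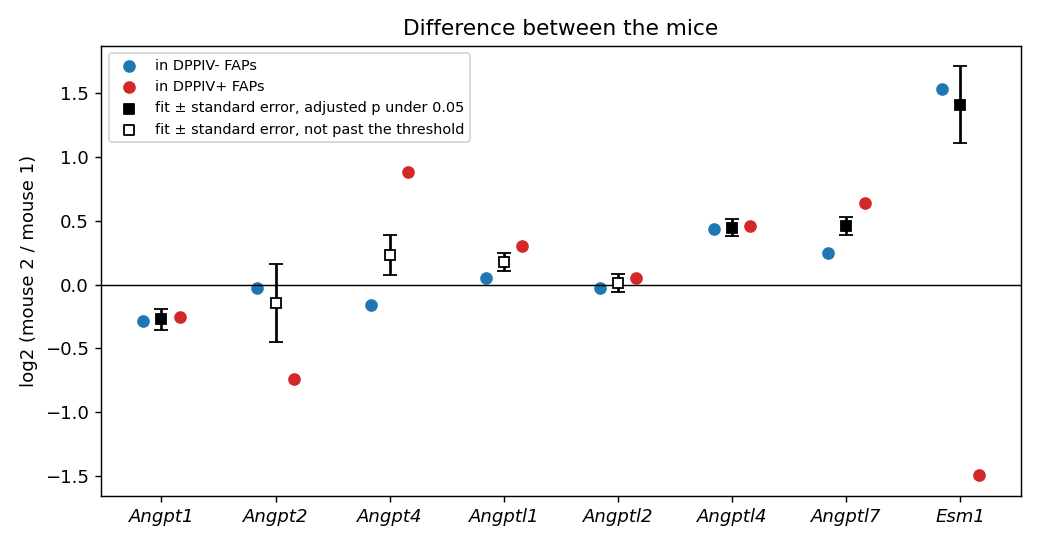
Log2 ratio of mouse 2 to mouse 1 for each gene in DPPIV- FAPs (blue) and DPPIV+ FAPs (red), with the fitted value and its standard error as squares, filled where the adjusted p was under 0.05. Angptl4 and Angptl7 are above 0 and Angpt1 below 0 in both cell types, while the points of Esm1 lie on opposite sides of 0.

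Genes with the profile most like each of the 8 were named by the distance between log2 CPM profiles over the 4 libraries, after centring each gene on its mean. The nearest to Angpt1 were Aplnr, the apelin receptor (distance 0.0606 log2 units), Smarca1 (0.0648) and Gfra1 (0.0665). The nearest to Angptl1 were Kifc3 (0.0259), Shank3 (0.0336) and Mertk (0.0372), the last a receptor for the uptake of dying cells. Angpt2 was nearest to Dlk1, a Notch-related inhibitor of fat differentiation, at 0.168, and Angpt4 to D8Ertd82e (0.120) and Mmp17 (0.144). Angptl7 had no gene closer than Irf4 (0.271), followed by Prrt4 (0.317) and Ackr3 (0.331), and Esm1 none closer than Frmd5 (1.33) and the hedgehog-binding protein gene Hhip (1.56). Angptl2 and Angptl4 had nearest genes at 0.00873 (Psen2) and 0.0256 (Slc12a7). A profile of 4 libraries has few degrees of freedom, and these distances are a description.

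Of the 8 genes, 5 lie within a gene of the opposite strand without sharing exon bases with it. Angpt2 lies in Mcph1, Angptl1 in Ralgps2, Angptl2 in Ralgps1, Angptl7 in Mtor and Esm1 in Gzmk. Exon bases were shared with other genes of the opposite strand, 737 between Angpt1 and Gm17473 and 465 between Angptl1 and Gm37802. Neither of those genes was in the count table. The kits named are stranded, but the strand setting of the counting is not given in the sources used here. Gzmk had 0 to 2 reads per library, and Mcph1 averaged 6.32 ± 1.13 CPM in DPPIV- and 6.13 ± 0.131 CPM in DPPIV+ FAPs (adjusted p = 0.911). Ralgps2 averaged 7.02 ± 0.195 and 3.29 ± 0.380 CPM and fell in DPPIV+ FAPs with its nested gene Angptl1 (log2 -1.09, SE 0.21, adjusted p = 2.02e-06), whose CPM lay far above it in every library. Mtor, the kinase gene around Angptl7, averaged 41.7 ± 1.58 and 47.3 ± 3.26 CPM (log2 0.18, SE 0.08, adjusted p = 0.0522). Ralgps1 rose by a log2 value of 0.78 (SE 0.19, adjusted p = 0.000215), a call that DESeq2 did not make (adjusted p = 0.0926), while Angptl2 was near equal.

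Among receptors and partners of the angiopoietins, 2 of 8 listed genes rose and 3 fell in DPPIV+ FAPs, with a median log2 difference of -0.13. These and the following lists were called over all 11588 genes, and the background shares given above for each direction apply to them. The lists were also chosen with earlier results of these data known. Their counts and adjusted p-values are therefore a description and not independent support. Tek, which encodes Tie2, had 187 and 149 CPM in DPPIV- and 467 and 427 CPM in DPPIV+ FAPs, and rose by a log2 value of 1.42 (SE 0.07, adjusted p = 2.59e-90). The receptor transcript was thus higher in the cells in which all 3 of its ligands were lower. Tie1, the co-receptor, was far lower at 6.54 ± 3.46 and 4.89 ± 0.472 CPM and was not called (adjusted p = 0.157). Itgb3, an integrin subunit, rose (log2 0.77, SE 0.07, adjusted p = 7.66e-30). Ptprb, the phosphatase that acts on Tie2, fell (log2 -0.95, SE 0.14, adjusted p = 3.69e-11), as did Svep1, a matrix protein that binds Tie1, from 1202 ± 5.24 to 873 ± 80.1 CPM (log2 -0.46, SE 0.07, adjusted p = 6.71e-10). Itga5 fell by 0.20 on the log2 scale (adjusted p = 0.0135), a call lost with DESeq2 (adjusted p = 0.177) and without the mouse in the model (adjusted p = 0.383).

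Receptors described for angiopoietin-like proteins, other than the integrins of the list above, gave 3 falls and 0 rises among 5 genes (edgeR). There were also 0 rises by DESeq2 and 0 at an unadjusted p under 0.05 by either, with a median of -0.50. Of the integrins in the list above, Itgb3 rose and Itga5 fell, so the 0 rises hold for these 5 genes only. The collagen receptor subunit Itga1 fell by 1.26 on the log2 scale (adjusted p = 6.66e-30). Nrp1, a co-receptor for VEGF and semaphorins, averaged 280 ± 5.63 CPM in DPPIV- and 155 ± 3.41 CPM in DPPIV+ FAPs (log2 -0.85, SE 0.07, adjusted p = 7.98e-35), and Nrp2 fell by 0.50 on the log2 scale (adjusted p = 6.59e-08). Pirb, the mouse PirB gene, was at 4.19 ± 2.46 and 3.12 ± 0.222 CPM and was not called (adjusted p = 0.253).

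Around the lipase that Angptl4 inhibits, 8 of 10 listed genes were tested, of which 1 rose and 4 fell, with a median of -0.13. Lpl, lipoprotein lipase itself, averaged 1210 ± 147 CPM in DPPIV- and 603 ± 8.98 CPM in DPPIV+ FAPs and fell in both mice (adjusted p = 7.26e-43), whereas Angptl4 was near equal. Pcsk6, a proprotein convertase, averaged 785 ± 126 and 2436 ± 59.7 CPM (log2 1.64, SE 0.07, adjusted p = 2.42e-103). The falls of Gpihbp1, Furin and Pcsk5 were small or of scarce transcripts and were lost with DESeq2 and without the mouse in the model, where Lpl alone was called lower. Among 9 transcription factors known to act on Angptl4 or Angpt2, 1 rose and 2 fell, with a median of -0.04. Foxo1, an activator of Angpt2 in endothelium, rose (log2 0.38, SE 0.07, adjusted p = 5.45e-08), the hypoxia factor gene Epas1 fell (log2 -0.65, SE 0.07, adjusted p = 6.14e-18), and Pparg fell (log2 -1.10, SE 0.26, adjusted p = 0.000129), which DESeq2 did not call (adjusted p = 0.128). Hif1a was at 104 ± 20.7 and 110 ± 5.76 CPM and was not called (adjusted p = 0.322).

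Of the VEGF and HGF ligands and receptors, with which endocan has been linked, 5 of 10 rose and 4 fell, with a median of -0.08. Vegfd, listed under its older symbol Figf, averaged 15.9 ± 2.35 CPM in DPPIV- and 82.9 ± 10.9 CPM in DPPIV+ FAPs (log2 2.38, SE 0.08, adjusted p = 3.33e-181). The other lymphatic ligand, Vegfc, went the opposite way, from 15.0 ± 1.52 to 6.62 ± 0.136 CPM (log2 -1.18, SE 0.15, adjusted p = 1.17e-13). Hgf fell (log2 -1.49, SE 0.19, adjusted p = 2.66e-13) and its receptor gene Met rose (log2 2.22, SE 0.22, adjusted p = 3.95e-23). Vegfa rose by 0.31 (SE 0.07, adjusted p = 2.11e-05), but not by DESeq2 (adjusted p = 0.0507). With DESeq2, and likewise without the mouse in the model, 2 genes of this list rose and 2 fell.

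The enzymes that build chondroitin and dermatan sulfate, the chain type that endocan carries, gave 2 rises and 5 falls among 17 genes, with a median of -0.15. Chst11, a chondroitin sulfotransferase gene, fell from 23.3 ± 1.60 to 8.86 ± 0.196 CPM (log2 -1.39, SE 0.13, adjusted p = 4.66e-27), Csgalnact1 by 0.63 and Chsy1 by 0.53 on the log2 scale, both chain-synthesis genes. Ust, a sulfotransferase for uronic acid, rose by 0.33 (SE 0.07, adjusted p = 3.76e-06). Dse and Dsel, which make dermatan from chondroitin, and Chst14, a dermatan sulfotransferase gene, were not called. However, Chst14 was called lower with upper-quartile scaling (log2 -0.19, adjusted p = 0.0489) and Dsel higher with robust moderation (log2 0.16, adjusted p = 0.0436).

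**Figure D5:**
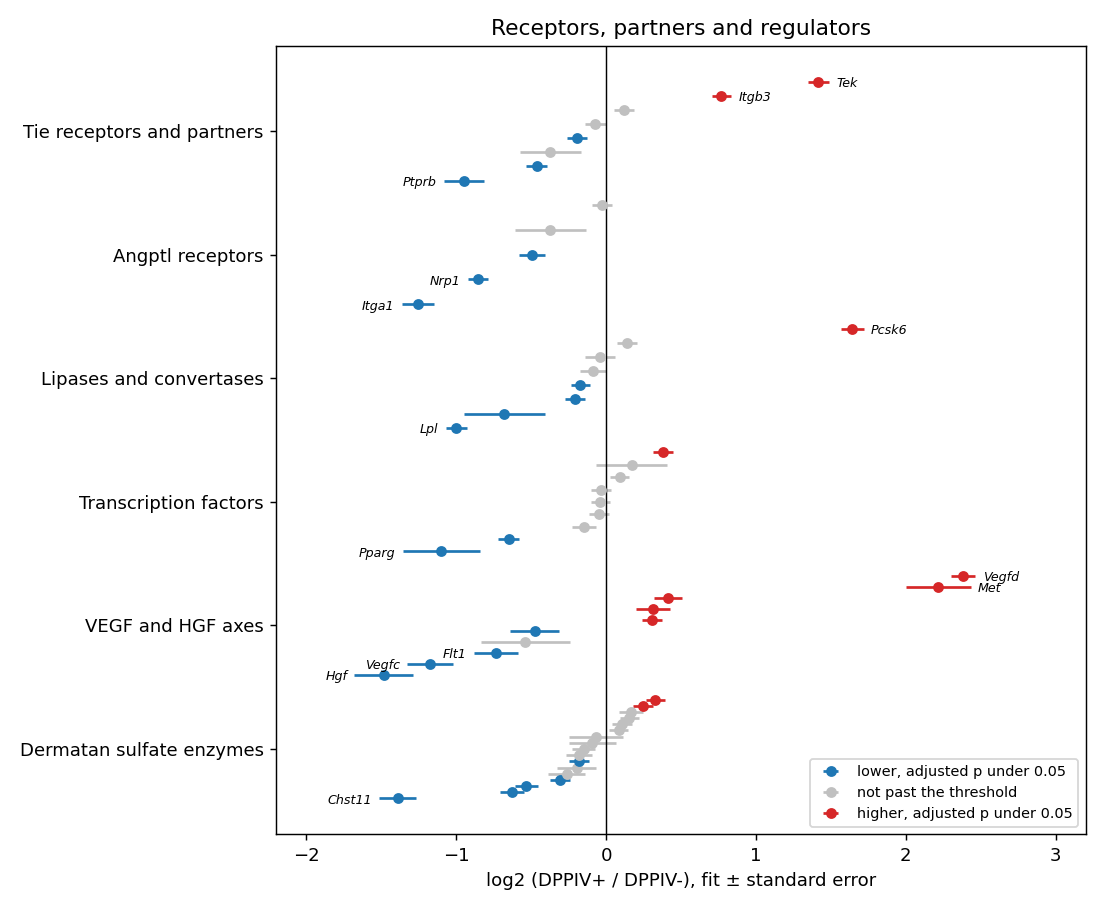
Fitted log2 ratio of DPPIV+ to DPPIV- FAPs with its standard error for the tested genes of 6 lists, with genes past the threshold in red (higher) or blue (lower) and the others in grey. Tek, Pcsk6, Vegfd and Met lie farthest to the right, and Hgf, Chst11, Itga1 and Vegfc farthest to the left.

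Markers of other cell types moved with some of these genes, and their part in the results was not tested. Of 8 mural cell markers (pericytes and smooth muscle, a known source of Angpt1), 7 fell in DPPIV+ FAPs by edgeR. Myh11 was not called (adjusted p = 0.221). By DESeq2, 4 fell (Cspg4, Notch3, Kcnj8 and Abcc9), but not Rgs5, Mcam and Acta2 (adjusted p = 0.439, 0.209 and 0.0544). The list summed to 170 and 174 CPM in DPPIV- and 67.8 and 86.6 CPM in DPPIV+ FAPs. Its largest part was Cspg4, at 63.4 and 76.0 CPM against 22.7 and 35.9 CPM. The direction of the list was that of the angiopoietins, Angptl1 and Esm1. Of 6 tenocyte markers, Tnmd, Scx, Mkx, Fmod and Kera rose and Thbs4 fell. The list summed to 1810 and 2411 CPM in DPPIV- and 1938 and 3835 CPM in DPPIV+ FAPs, which overlap. Without Thbs4, which made up 57.8% to 88.5% of the sum, it stood at 209 and 314 CPM in DPPIV- and 784 and 1618 CPM in DPPIV+ FAPs, an omission chosen after seeing the data. The full sum did not have the order of Angptl7 over the 4 libraries, and nothing is read from the order of the trimmed sum. All 6 tenocyte markers, like Angptl7, were called higher in mouse 2 by edgeR. The part of tenocytes in the Angptl7 values was not tested.

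Endothelial markers were read beside Esm1, CD31+ cells having been gated out. Of 10 blood endothelial markers 9 were tested, of which Tek rose and 6 fell, and 0 fell by DESeq2 (1 at an unadjusted p under 0.05) or without the mouse in the model (2 unadjusted). The list summed to 277 and 198 CPM in DPPIV- and 518 and 472 CPM in DPPIV+ FAPs. Tek was 67.4% to 90.5% of that level, and without it, in the opposite direction for each mouse, the list stood at 90.4 and 48.5 CPM in DPPIV- and 51.1 and 44.8 CPM in DPPIV+ FAPs, also an omission made after seeing the data. The sums without Tek overlap between the cell types. In DPPIV- FAPs the sum without Tek was lower in mouse 2 than in mouse 1, whereas Esm1 was higher in mouse 2. The part of endothelial cells in the Esm1 values was not tested. Pecam1, which encodes CD31, had 20.4 and 11.2 CPM in DPPIV- and 11.7 and 11.2 CPM in DPPIV+ FAPs. Adipocyte markers, the defining ones for a fat source of Angptl4, summed to 0.287 and 0.256 CPM in DPPIV- and 0 CPM in both DPPIV+ libraries, with Lep and Cfd at 0 in all 4. The FAP markers themselves were abundant in every library, at a summed 32800 to 34860 CPM, of 6 genes of which 3 rose (Ly6a, Cd34 and Pi16) and 3 fell (Pdgfra, Dcn and Col1a1).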

How the data were processed

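Raw read counts per gene symbol for 4 libraries were used as the authors deposited them. Demultiplexing was by bcl2fastq2 2.20, alignment to mm10 by STAR and counting by RnaReadCounter. The annotation release and strand setting are not given in the sources used here. The labels name the NEBNext Ultra II kit and the methods TruSeq Stranded.

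Symbols that reached 2 CPM in 2 or more libraries entered the tests, with TMM scaling. Cell types and mice were compared in R 4.3.3 with edgeR 4.0.16 (quasi-likelihood F test, model of mouse and cell type, two-sided, Benjamini-Hochberg adjustment over all genes kept, threshold 0.05). The prior degrees of freedom were infinite, so the spread of each gene came from the abundance trend. Log2 ratios per mouse used a prior count of 0.125. The SE of a fitted log2 value was derived from the test, as its absolute size divided by the square root of the F statistic. RPKM and positions used GENCODE M21. The script was tested on simulated counts. Mouse was a replicate block, since both cell types came from the same animals, and the animals' differences in DPPIV- cells correlated with those in DPPIV+ cells (r = 0.415 over genes, not independent replicates). The libraries of each cell type differed by more than sampling noise (chi-square per degree of freedom 12.9 and 9.55).

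The 8 genes and all lists were chosen with earlier results of these data known. Named genes are the 8, their relatives, hosts, other overlapping genes and 3 nearest profiles, listed pathway and marker genes, and Dpp4. Alternatives were DESeq2 1.42.0, no replicate block, RLE and upper-quartile scaling, no filter, 2 CPM in 3 libraries, the likelihood ratio test, robust moderation, each mouse left out and, for RPKM, the longest transcript. Sums without Tek or Thbs4 were added after seeing the data.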

Additional observations from a re-analysis of the deposited data

How the results depend on the processing

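With 2 mice and 1 residual degree of freedom, p-values rest on the abundance trend, and leaving out a mouse leaves log2 values with no test. The 8 genes were chosen on the contrast of the cell types, so their counts of calls under other settings are no support for it. Upper-quartile scaling added Angptl4 to the lower genes (6). With at least 2 CPM required in 3 libraries, Angpt2 and Esm1 were not tested, so the count of lower genes among the 8 was 3 and the median -0.52. With a mouse left out, the median was between -0.73 and -0.98. Angptl2 was then between -0.068 and 0.0086, Kdr between -0.95 and 0.10 and Thbs4 between -0.47 and 0.081, each with the higher value without mouse 1. The cause of the other changes was not tested.

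DESeq2 called 923 genes higher (1837 by edgeR), 995 lower (1989) and 110 between the mice (1041), and 2 of the 8 between the mice (4), with no adjusted p for Angpt2 and Esm1. Without the replicate block of the paired mice, 1001 genes were higher and 1119 lower. Among the lists, DESeq2 gave 1 lower lipase gene, 1 lower transcription factor, 2 higher and 2 lower VEGF and HGF genes, 1 higher dermatan sulfate gene, 4 lower mural genes and 0 lower endothelial, tenocyte or macrophage genes (1, 0 and 1 at an unadjusted p under 0.05). Without the replicate block the counts were 1 for lower lipase genes, 2 and 2 for VEGF and HGF genes, 1 for higher dermatan sulfate genes and 0 for lower endothelial, tenocyte or macrophage genes (2, 0 and 1 unadjusted). RLE scaling gave 0 lower tenocyte genes, upper-quartile scaling 8 lower dermatan sulfate genes (5 in the report), no filter 2 lower lipase genes, and 2 CPM in 3 libraries 1 lower perineurial gene. Robust moderation lost the call of Dpp4 (adjusted p = 0.178). Angpt2 and Esm1 in DPPIV+ FAPs rest on 1 to 10 reads per library.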

Other observations

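Markers of 4 further cell types were read beside the 8 genes. Macrophage markers, of which Csf1r, Adgre1 and Lyz2 fell among 5 tested by edgeR and 0 by DESeq2 (1 at an unadjusted p under 0.05), summed to 294 and 173 CPM in DPPIV- and 182 and 166 CPM in DPPIV+ FAPs. Perineurial and Schwann cell markers summed to 26.6 to 36.6 CPM per library, and Cldn1 and S100b fell among 5 tested. Lymphatic endothelial markers summed to 6.20 to 11.1 CPM with Ccl21a at 0 in all 4 libraries, and satellite cell and myofibre markers to 40.3 to 63.8 CPM, with 0 calls among 2 and 4 genes tested by edgeR or DESeq2. At an unadjusted p under 0.05, edgeR had 1 lower lymphatic gene and 0 muscle genes, and DESeq2 had 0 of either. Over the 57 tested genes of the pathway lists together, 11 rose, 21 fell and 25 did not pass the test in DPPIV+ FAPs, with a median log2 difference of -0.15, and 15 were called between the mice.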
